A study of Mus musculus with 9 samples.

Results

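S100a8, S100a9, S100a4, S100a6, S100a10, S100a11, S100a13 and S100a1 are genes of the S100 family of small calcium-binding proteins, and they were chosen by symbol, as 8 of the 52381 genes with a deposited level in the lung libraries studied here. Each symbol occurred in 1 row, so no choice between rows was needed. S100 proteins are a vertebrate family that binds calcium through EF-hand loops, mostly as dimers, and that changes the activity of partner proteins when calcium rises. S100a8 and S100a9 are the subunits of calprotectin, which fills the cytosol of neutrophils, withholds zinc and manganese from microbes and, once released, acts as an alarmin, a signal of damage that reaches Tlr4 and the receptor Ager. The other members act mainly inside cells, on annexins, the cytoskeleton and protein secretion.

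RNA was sequenced from lung tissue of 9 mice in which lipopolysaccharide (LPS) had brought about acute lung injury (ALI). LPS is a bacterial cell wall component that sets off acute inflammation. The group called LPS-ALI here holds 4 mice with LPS alone, and the group called TMAO holds 5 injured mice treated with trimethylamine N-oxide, a metabolite that derives from gut bacterial products. All mice in both groups received LPS, and lungs without LPS were not analysed here. Strain, age, sex, doses, routes and times are not stated in the sources used, and in whole lung fewer cells of a type and less RNA per cell cannot be told apart. The comparison asks what TMAO does in the injured lung.

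Values are FPKM, fragments per kilobase of gene, scaled to the library total. Total reads per library are unknown, and from the spacing of low values the relative depth of the libraries lay between 0.383 and 1, lowest in TMAO replicate 5. That library also had the lowest median level of the 11817 tested genes, 2.34 FPKM, where the other libraries reached up to 9.17. Since the median gene moved by -0.17 log2 units between the groups, and by 0.05 without TMAO replicate 5, each difference is also given relative to the median gene. The protocol text in the labels names platelets, but platelet markers summed to 18.6 to 76.5 FPKM over the 9 libraries and alveolar type 2 markers, at home in lung, to 1064 to 13857. LPS-ALI replicates 3 and 4 carry library codes that begin with X and the other 7 begin with B, and the meaning of this code is not given.

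The 8 members lie on mouse chromosome 3 of GRCm38, where 15 of the 18 annotated S100 genes are. A cluster of 185 kb holds 6 of them, in the order S100a1, S100a13, S100a4, S100a6, S100a8 and S100a9, while S100a11 and S100a10 lie 2.82 Mb further on. S100a8 (ENSMUSG00000056054, 90668978 to 90670035, plus strand) and S100a9 (ENSMUSG00000056071, 90692632 to 90695721, minus strand) are 22596 bases apart. S100a1 (ENSMUSG00000044080, 90511034 to 90514392, minus strand) and S100a13 (ENSMUSG00000042312, 90514435 to 90524581, plus strand) start back to back with 42 bases between them. S100a11 (ENSMUSG00000027907) runs from 93520488 to 93526287 and S100a10 (ENSMUSG00000041959) from 93555080 to 93564643. S100a6 (ENSMUSG00000001025) runs from 90612882 to 90624181 and S100a4 (ENSMUSG00000001020) from 90603771 to 90606045, all on the plus strand. S100a4 shares exon bases with the gene model Gm42674, so its reads could have been split or counted in part. No exon of another gene overlaps the other 7 members.

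The upstream sequences shown here belong to the calprotectin pair, to S100a11, whose groups did not overlap, and to the back-to-back pair S100a1 and S100a13, and they come from RefSeq on GRCm38.p6. Each is written 5′ to 3′ on the gene's own strand, and the first 3 begin 250 bases before the RefSeq start and stop before the first base of any annotated exon. Capitals mark matches on either strand. The letters searched were TTGCNNAA for C/EBP factors, which drive myeloid genes, and TGANTCA for AP-1, which responds to stress and growth signals. They were GAGGAA for PU.1, a factor of myeloid cells, and TATAAA for the TATA box. The first line is chr3:90668821-90668977, the second chr3:90695722-90695971, the third chr3:93520246-93520487, and the fourth the gap between S100a1 and S100a13, chr3:90514393-90514434, on the strand of S100a13.
S100a8: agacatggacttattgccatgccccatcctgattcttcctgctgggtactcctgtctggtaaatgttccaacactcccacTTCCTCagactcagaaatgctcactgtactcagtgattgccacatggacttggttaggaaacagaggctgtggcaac
S100a9: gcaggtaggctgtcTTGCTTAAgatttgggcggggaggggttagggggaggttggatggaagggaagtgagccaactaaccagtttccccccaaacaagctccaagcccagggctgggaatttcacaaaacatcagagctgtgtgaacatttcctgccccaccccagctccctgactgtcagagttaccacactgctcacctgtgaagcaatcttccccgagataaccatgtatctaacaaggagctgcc
S100a11: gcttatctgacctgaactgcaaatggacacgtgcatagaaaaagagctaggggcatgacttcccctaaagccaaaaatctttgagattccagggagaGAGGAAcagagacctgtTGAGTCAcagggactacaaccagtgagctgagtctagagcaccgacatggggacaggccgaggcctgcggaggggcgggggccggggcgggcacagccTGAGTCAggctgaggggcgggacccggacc
S100a13: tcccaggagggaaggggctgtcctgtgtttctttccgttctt

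The S100a11 window holds 2 AP-1 matches, 136 and 38 bases before the start, and a PU.1 match at 153. Of all 32536 upstream windows of this length, 6.73% hold an AP-1 match and 0.338% hold 2 or more. S100a8 has PU.1 matches 170 and 36 bases before its start and a TATA box at 30, of which the last 2 fall in an exon of another transcript model and are not printed. In S100a9 the only match is 1 for C/EBP, 236 bases before the start. PU.1 matches occur in 23.4% of all windows, TATA boxes in 12.3% and C/EBP matches in 9.57%, and the gap between S100a1 and S100a13 holds none of the 4. Upstream sequences were found for 7 of the 8 members, and S100a10 is named only.

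Levels of the members spanned more than 2 orders of magnitude, in the order S100a9, S100a8, S100a11, S100a6, S100a10, S100a1, S100a13 and S100a4. FPKM is scaled by gene length, so genes can be set side by side, although the lengths used are not given. S100a9 was the 13th to 20th highest protein-coding gene of a library by level and S100a8 the 17th to 31st. Together they made up 0.987% to 2.85% of the FPKM outside the mitochondrial genome, and 66.8% to 88.7% of the summed FPKM of the 8 members. Among neighbours in this order S100a9 exceeded S100a8, S100a8 exceeded S100a11, S100a11 exceeded S100a6, S100a6 exceeded S100a10 and S100a10 exceeded S100a1 in 9 of 9 libraries. S100a1 exceeded S100a13 in only 6 of 9, and S100a13 exceeded S100a4 in 8 of 9, so S100a1 and S100a13 were the neighbours least set apart. S100a11 came within a ratio of 1.01 of S100a6 in 1 library.

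**Figure D1:**
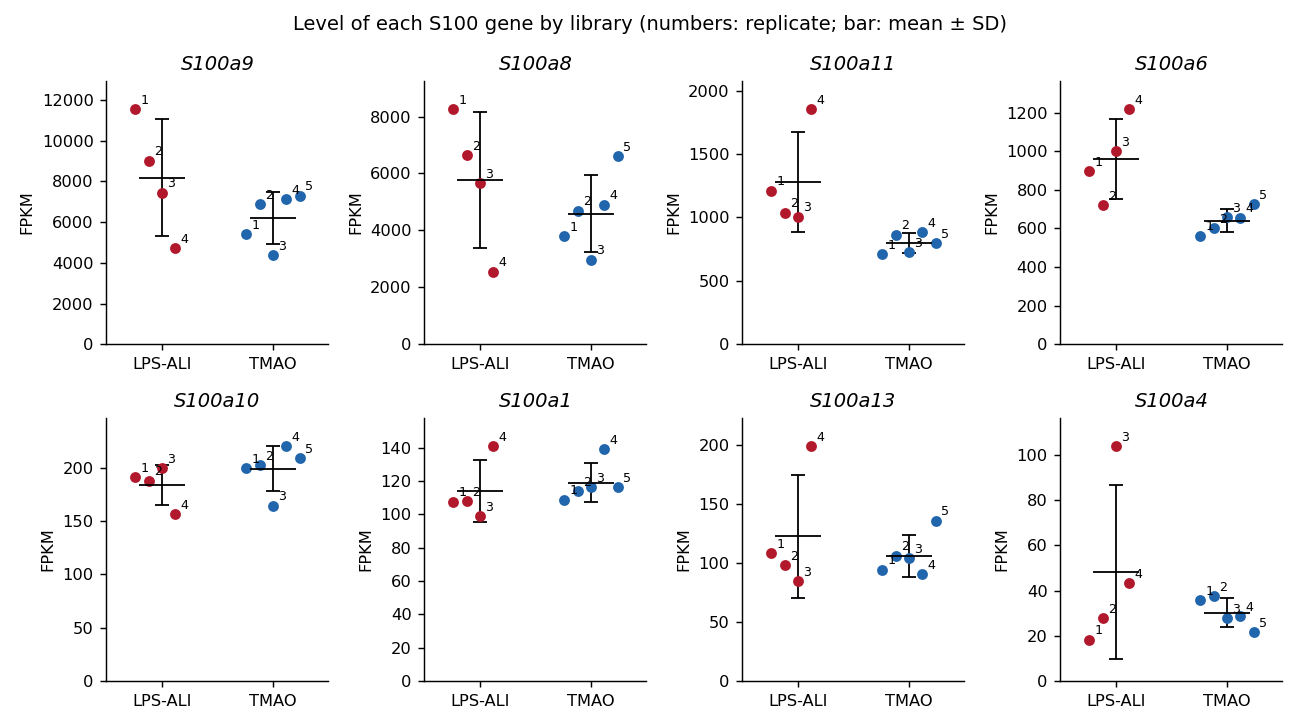
FPKM of each member (y axis, from 0) in the 4 LPS-ALI and 5 TMAO libraries (x axis); points are libraries numbered by replicate, and bars give the mean ± SD. S100a11 is the member whose groups do not overlap, with 709 to 884 FPKM in TMAO lungs and 1008 to 1854 in LPS-ALI lungs.

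Between TMAO and LPS-ALI lungs, 0 of the 8 members passed an adjusted p of 0.05 by limma, as did 0% of all 11817 tested genes, with a limma adjusted p of 0.998 for each member. At an unadjusted limma p under 0.05, S100a11 and S100a6 (2 of 8) were lower in TMAO lungs, against 346 of all tested genes (2.93%) lower and 50 (0.423%) higher. The exact permutation test, over all 126 ways to assign the 9 libraries to groups of 4 and 5, gave p under 0.05 for these 2 members, against 3.61% of all genes lower and 0.44% higher. Its smallest possible p is 0.00794, and adjusted over all tested genes the permutation p was 1 for every member. Of the 8 members 6 had lower and 2 had higher mean log2 levels in TMAO lungs, and 5 lay below the median gene. Over all tested genes 72.1% had lower mean levels.

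S100a9 had 11550.1, 9016, 7452 and 4707 FPKM in LPS-ALI replicates 1 to 4. In TMAO replicates 1 to 5 it had 5394, 6891, 4361, 7120.02 and 7294 FPKM. The groups overlapped, since LPS-ALI replicate 4 had less than 4 of the 5 TMAO lungs while the other LPS-ALI lungs had more than all of them. The mean was 8181 ± 2867 (SD, n = 4) with LPS alone and 6212 ± 1280 (SD, n = 5) with TMAO. That is a log2 difference of -0.35 ± 0.27 (SE, limma), or -0.18 relative to the median gene (exact two-sided permutation p = 0.238). Without LPS-ALI replicate 4 the difference was -0.59 (exact permutation p = 0.0357), and without LPS-ALI replicate 1 it was -0.16 (exact permutation p = 0.518). It was -0.74 without the X-coded libraries, -0.66 without LPS-ALI replicate 4 and TMAO replicate 5, and -0.73 with library weights (limma adjusted p = 0.0901).

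S100a8, its partner subunit, had 8256, 6635, 5648 and 2551 FPKM with LPS alone and 3785, 4688, 2968, 4895 and 6603 with TMAO. LPS-ALI replicate 4 was the lowest of all, and TMAO replicate 5 came close to LPS-ALI replicate 2. The mean was 5773 ± 2402 (SD, n = 4) and 4588 ± 1363 (SD, n = 5). The log2 difference was -0.26 ± 0.32 (SE, limma), or -0.09 relative to the median gene (exact permutation p = 0.516). With 1 library left out at a time it ranged from -0.61 without LPS-ALI replicate 4 to -0.05 without LPS-ALI replicate 1. It was -0.74 without the X-coded libraries, -0.76 without LPS-ALI replicate 4 and TMAO replicate 5, and -0.80 with library weights (limma adjusted p = 0.0901). Under quantile normalization it turned to 0.32.

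The subunits kept close to each other. The S100a8 to S100a9 ratio of FPKM was 0.680 to 0.758 in 7 libraries, with 0.542 in LPS-ALI replicate 4 and 0.905 in TMAO replicate 5. On the log2 scale it was -0.55 ± 0.22 (SD, n = 4) with LPS alone and -0.46 ± 0.18 (SD, n = 5) with TMAO, a difference of 0.09 (exact permutation p = 0.556, and 0.833 adjusted over the 3 ratios tested). With LPS-ALI replicate 4 left out it turned to -0.02, and with TMAO replicate 5 left out too it was -0.10 (exact permutation p = 0.0286, the smallest for 3 against 4). These libraries hold the lowest and the highest ratio, so a p found without them is no fair test of it. Under quantile normalization the difference was 0.48 (exact permutation p = 0.0952). Over the 9 libraries, with each value taken relative to the median gene of its library, Pearson's r between them was 0.991 (exact permutation p = 2.76e-06, the smallest that 9 libraries can give, and 9.09e-05 adjusted over 33 relations). Spearman's rho was 1 (exact permutation p = 5.51e-06, adjusted 0.000182). Without LPS-ALI replicate 4 and TMAO replicate 5, the libraries farthest from the median, r was 0.997, and it was 0.996 within the 7 B-coded libraries and 0.954 on the values as deposited.

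Neutrophils are the main source of calprotectin, and their markers were set beside it. Retnlg, a resistin-like gene of mature neutrophils, had 608, 537, 659 and 168 FPKM with LPS alone and 436, 572, 277, 552 and 745 with TMAO. It was lowest in LPS-ALI replicate 4 and highest in TMAO replicate 5. Relative to the median gene, its r with S100a8 was 0.937 (exact permutation p = 0.000138, adjusted 0.00152; rho 0.950, exact p = 0.000353, adjusted 0.00388), 0.808 without those libraries and 0.879 as deposited. With S100a9 its r was 0.892 (exact permutation p = 0.000427, adjusted 0.00352; rho 0.950, exact p = 0.000353, adjusted 0.00388), 0.827 without LPS-ALI replicate 1 and TMAO replicate 5, and 0.746 as deposited. The 12 neutrophil markers summed to 651 to 1160 FPKM with LPS alone and 555 to 1028 with TMAO, 0 of 12 were called, and none was at 0 in every library. Of these 12, 10 had lower mean log2 levels in TMAO lungs (72.1% of all tested genes did), and 8 lay below the median gene. Their median log2 difference was -0.38, beside -0.17 over all tested genes, while Retnlg went the other way at 0.17. S100a9 stood 7.36 to 8.05 log2 units above the mean of these markers with LPS alone and 7.50 to 8.46 with TMAO. The group difference of that distance was 0.01 (exact permutation p = 0.968, and the same adjusted over the 3 ratios), and it was -0.16 without TMAO replicate 5. Markers did not all go one way within a library: LPS-ALI replicate 4 had the highest Ly6g, 17.6 FPKM, against 2.11 to 8.56 in the others. The part of neutrophil number in the calprotectin levels was not tested.

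**Figure D2:**
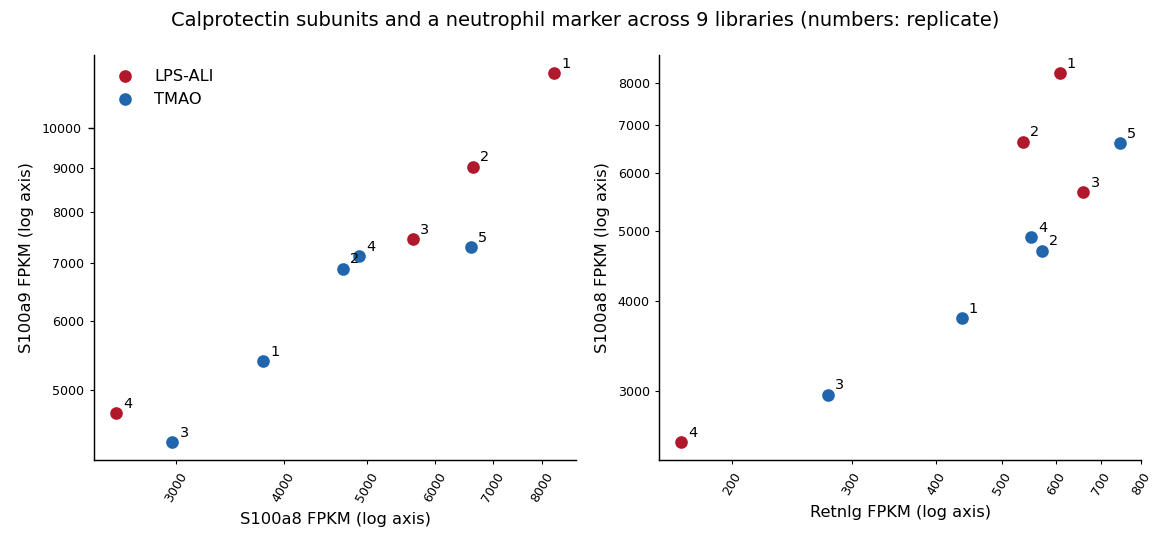
FPKM of S100a9 against S100a8 (left) and of S100a8 against the neutrophil marker Retnlg (right), both axes logarithmic; points are the 9 libraries, numbered by replicate and coloured by group. LPS-ALI replicate 4 lies at the low end of S100a8 with 2551 FPKM and LPS-ALI replicate 1 at the high end with 8256.

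S100a11, which binds Anxa1 and takes part in membrane repair and keratinocyte growth control, had 1209.9, 1037, 1008 and 1854 FPKM in LPS-ALI lungs. TMAO lungs had 709, 865, 724, 884 and 799 FPKM. Every TMAO lung lay below every LPS-ALI lung, a separation in this direction that 1.36% of all tested genes showed (0.118% in the other), and S100a11 was the 1 member of 8 with it. The mean was 1277 ± 395 (SD, n = 4) against 796 ± 79.5 (SD, n = 5), a log2 difference of -0.64 ± 0.25 (SE, limma), or -0.47 relative to the median gene. The exact two-sided permutation p was 0.00794, adjusted to 1 over all genes. LPS-ALI replicate 4 was the highest, and without it the difference was -0.45 (exact permutation p = 0.0179, the smallest for 3 against 5). Among the B-coded libraries alone, 2 LPS-ALI against 5 TMAO, it was -0.50 (exact permutation p = 0.0476, the smallest for 2 against 5). Since the full groups do not overlap, no smaller set of these libraries could overlap or change sign. The p-values with libraries left out are therefore no further support.

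The separation depended on scaling. Relative to the median gene of the library, S100a11 stood at 7.14 to 7.88 log2 units in LPS-ALI lungs, at 6.44 to 6.74 in TMAO replicates 1 to 4 and at 7.90 in TMAO replicate 5. The difference was negative under all 24 alternatives, from -0.74 to -0.41. Several of these could not turn it, such as leaving out libraries or changing only the filter or the variance model. Its exact permutation p was 0.302 under median-of-ratios scaling, 0.222 with the library median subtracted and 0.0635 after rescaling to TPM. The same test gave 0.00794 under quantile normalization and 0.0238 with mitochondrial, haemoglobin and small RNA genes removed, so not every rescaling weakened the difference alike.

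S100a6, known as calcyclin and expressed in fibroblasts and epithelium, followed S100a11. It had 896, 721, 999.9 and 1218 FPKM with LPS alone and 563, 602, 659.5, 655 and 726 with TMAO. Only TMAO replicate 5 overlapped the LPS-ALI range, just above LPS-ALI replicate 2. The mean was 959 ± 208 (SD, n = 4) against 641 ± 61.9 (SD, n = 5), a log2 difference of -0.56 ± 0.25 (SE, limma), or -0.39 relative to the median gene (exact permutation p = 0.0159). Without the X-coded libraries the difference was -0.33 (exact permutation p = 0.0952, where the smallest for 2 against 5 is 0.0476), and under median-of-ratios scaling -0.33 (exact permutation p = 0.492). The same test gave 0.341 with the library median subtracted. It gave 0.0317 after rescaling to TPM and under quantile normalization, and 0.0159 with mitochondrial, haemoglobin and small RNA genes removed.

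S100a6 and S100a11 had an r of 0.930 relative to the median gene (exact permutation p = 6.61e-05, adjusted 0.00109; rho 0.933, exact p = 0.00075, adjusted 0.00618). It was 0.862 without LPS-ALI replicate 4 and TMAO replicate 5, 0.877 as deposited, and 0.923 after the group means were removed. Both genes are expressed in many cell types, so markers of myeloid cells, epithelial cells and fibroblasts were set beside them. Macrophage markers summed to 270.01 to 455 FPKM with LPS alone and 118 to 339 with TMAO. Monocyte markers summed to 277 to 541 FPKM with LPS alone and 156 to 238 with TMAO, where 6 of the 7 tested had differences under that of the median gene and Ccr2 was too low to be tested. Ciliated cell markers summed to 24.3 to 118 FPKM with LPS alone and 17.4 to 26.8 with TMAO, where 5 of 5 tested had differences under that of the median gene. The high ciliated sums were those of the X-coded LPS-ALI replicates 3 and 4, at 97.6 and 118 FPKM, while LPS-ALI replicates 1 and 2 had 26.7 and 24.3. Relative to the median gene the median ciliated difference was -0.996, and -0.03 without the X-coded libraries. For monocyte markers it was -0.64, and -0.38 without those libraries. Other markers did not go this way with all libraries: it was 0.02 for alveolar type 1, 0.28 for alveolar type 2 and 0.49 for fibroblast markers. Without the X-coded libraries these 3 values were -0.26, -0.58 and -0.08. None of these markers was at 0 in every library, and their part in the S100a6 and S100a11 difference was not tested.

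Anxa1, the annexin partner of S100a11 and a brake on neutrophil entry, had 205 ± 83.8 (SD, n = 4) and 115 ± 31.5 (SD, n = 5) FPKM. Its log2 difference was -0.80 ± 0.34 (SE, limma), with an exact permutation p of 0.0238. Relative to the median gene its r with S100a11 was 0.757 (exact permutation p = 0.00897, adjusted 0.0329; rho 0.750, exact p = 0.0255, adjusted 0.140), with 0.928 without LPS-ALI replicate 4 and TMAO replicate 5 and 0.842 as deposited.

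**Figure D3:**
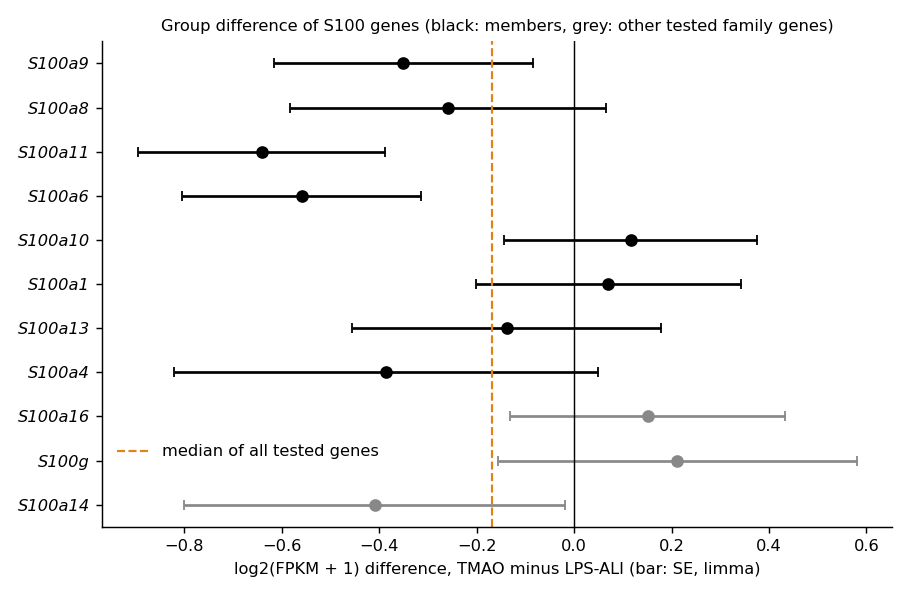
Difference in log2(FPKM + 1), TMAO minus LPS-ALI (x axis), with the limma SE as bars, for the 8 members (black) and the 3 other S100 genes high enough to be tested (grey); the dashed line is the median of all tested genes, at -0.17. S100a11 and S100a6 lie farthest below that line, at -0.64 and -0.56.

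S100a10 is the S100 protein that does not respond to calcium, and with Anxa2 it forms a complex at the cell membrane that recruits plasminogen and ion channels. It varied least among the members in LPS-ALI lungs, with 191, 188, 199 and 156 FPKM there and 199, 202, 164.4, 220.3 and 209 in TMAO lungs. The groups overlapped in part, with 156 to 199 FPKM in LPS-ALI lungs and 164.4 to 220.3 in TMAO lungs. The mean was 184 ± 18.9 (SD, n = 4) and 199 ± 20.97 (SD, n = 5), a log2 difference of 0.12 ± 0.26 (SE, limma), or 0.29 relative to the median gene (exact permutation p = 0.317). Its FPKM ratio to Anxa2 was 0.399 to 0.582 in LPS-ALI lungs, 0.455 to 0.598 in TMAO replicates 1 to 4 and 1.29 in TMAO replicate 5. There Anxa2 had 162 FPKM, against 319 to 484 in the other libraries. The log2 ratio differed by 0.40 between the groups (exact permutation p = 0.262, adjusted 0.786) and by 0.13 without TMAO replicate 5. S100a10 and Anxa2 had an r of -0.0150 relative to the median gene (exact permutation p = 0.960; rho 0.267, exact p = 0.493), and 0.308 without LPS-ALI replicate 4 and TMAO replicate 5. Under median-of-ratios scaling the r was 0.791, so whether this pair varied together depends on the scaling.

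S100a13, which helps to release Fgf1 and Il1a from cells by a route without a signal peptide, had 109, 98.1, 84.7 and 199 FPKM in LPS-ALI lungs. In TMAO lungs it had 94.25, 106, 104, 90.6 and 136 FPKM. LPS-ALI replicate 4 and TMAO replicate 5 were the high libraries of their groups, and the other 7 lay between 84.7 and 109. The mean was 123 ± 52.1 (SD, n = 4) and 106 ± 17.9 (SD, n = 5), a log2 difference of -0.14 ± 0.32 (SE, limma), or 0.03 relative to the median gene (exact permutation p = 0.683). It turned to 0.12 without LPS-ALI replicate 4 and to 0.09 under median-of-ratios scaling.

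S100a1, a calcium sensor best known from heart muscle, where it acts on Ryr2 and Atp2a2, had 107.51, 108, 99.0 and 141 FPKM with LPS alone and 109, 114, 116, 139 and 116 with TMAO. The groups covered nearly the same range. The mean was 114 ± 18.6 (SD, n = 4) and 119 ± 11.7 (SD, n = 5), a log2 difference of 0.07 ± 0.27 (SE, limma), or 0.24 relative to the median gene (exact permutation p = 0.548). Cardiac muscle markers summed to 8.38 to 46.6 FPKM with LPS alone and 12.2 to 75.1 with TMAO, and Ryr2 was at most 0.33. Myh6, the heart myosin gene, was near the floor as well, at 0 to 4.08 FPKM. Its r with S100a1 was 0.626 relative to the median gene (exact permutation p = 0.0274, adjusted 0.0753; rho 0.617, exact p = 0.0857, adjusted 0.283), 0.484 without LPS-ALI replicate 4 and TMAO replicate 5, and -0.175 as deposited.

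S100a1 and S100a13, the back-to-back genes, had an r of 0.913 relative to the median gene (exact permutation p = 0.00133, adjusted 0.00877; rho 0.867, exact p = 0.00451, adjusted 0.0298). It was 0.536 without LPS-ALI replicate 4 and TMAO replicate 5 and 0.576 as deposited, so the relation rests on those libraries and on the scaling.

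S100a4, which binds nonmuscle myosin and marks motile fibroblasts, monocytes and lymphocytes, was the lowest and most variable member. It had 18.3, 27.8, 104 and 43.2 FPKM in LPS-ALI lungs and 35.7, 37.4, 27.8, 28.7 and 21.6 in TMAO lungs. LPS-ALI replicate 3 alone stood high, and all TMAO lungs lay inside the LPS-ALI range. The mean was 48.3 ± 38.5 (SD, n = 4) and 30.2 ± 6.40 (SD, n = 5), a log2 difference of -0.39 ± 0.43 (SE, limma), or -0.22 relative to the median gene (exact permutation p = 0.556). Without LPS-ALI replicate 3 it turned to 0.08, and without both X-coded libraries to 0.38.

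**Figure D4:**
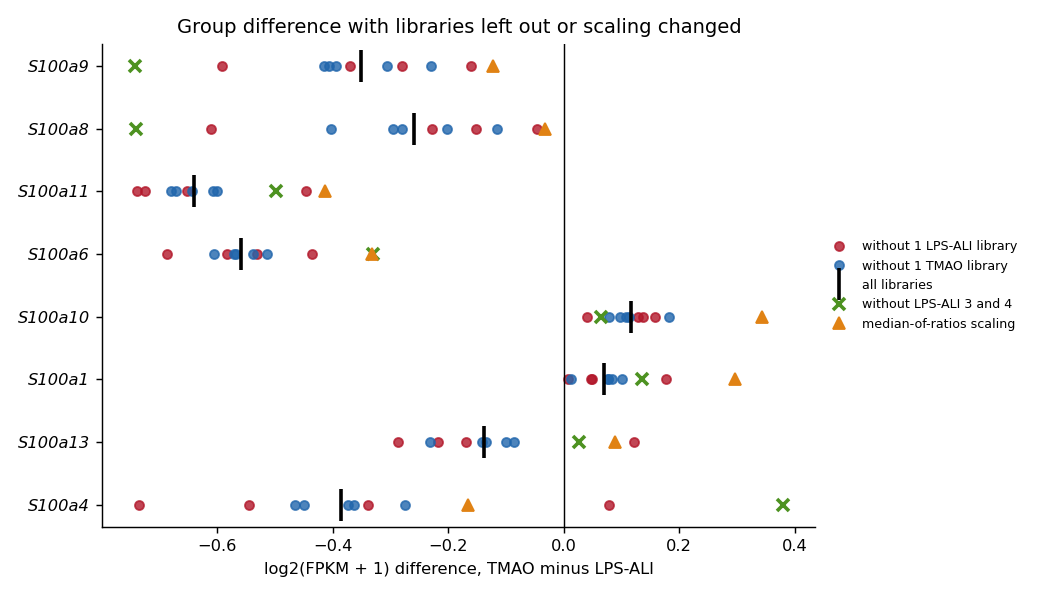
Difference in log2(FPKM + 1), TMAO minus LPS-ALI (x axis), for each member (rows) with all libraries (black bars), without 1 library (circles), without LPS-ALI replicates 3 and 4 (crosses) and under median-of-ratios scaling (triangles). S100a11, S100a6, S100a9 and S100a8 stay below 0 in all of these, while S100a4 and S100a13 change sign. For S100a11, whose groups do not overlap, leaving out libraries could not change the sign.

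TMAO replicate 5 was the highest library for 7 of the 8 members once values were taken relative to the median gene. S100a8, S100a9, S100a6, S100a10, S100a11, S100a13 and S100a1 each had their highest relative level in that library, for example 10.95 log2 units for S100a8 against 8.34 to 9.97 in LPS-ALI lungs. For S100a11 it was level with LPS-ALI replicate 4, at 7.90 and 7.88. S100a4 was the exception, with its highest relative level, 3.95, in LPS-ALI replicate 3. The median log2 level of tested genes was 1.74 in TMAO replicate 5 and 2.74 to 3.35 in the other libraries. A gene of steady FPKM therefore stands higher in TMAO replicate 5 on this scale. On FPKM as deposited no member was highest in that library, and the share over all tested genes was not taken. This scaling bears on how the members vary together: 28 of 28 member pairs had a positive r relative to the median gene, and 8 passed an adjusted exact permutation p of 0.05. On values as deposited 13 pairs were positive and 15 negative. Shares over pairs of all tested genes were not taken, so these counts cannot be read as particular to the members. S100a8 with S100a9 and S100a6 with S100a11 were the pairs with r above 0.85 on both scales.

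**Figure D5:**
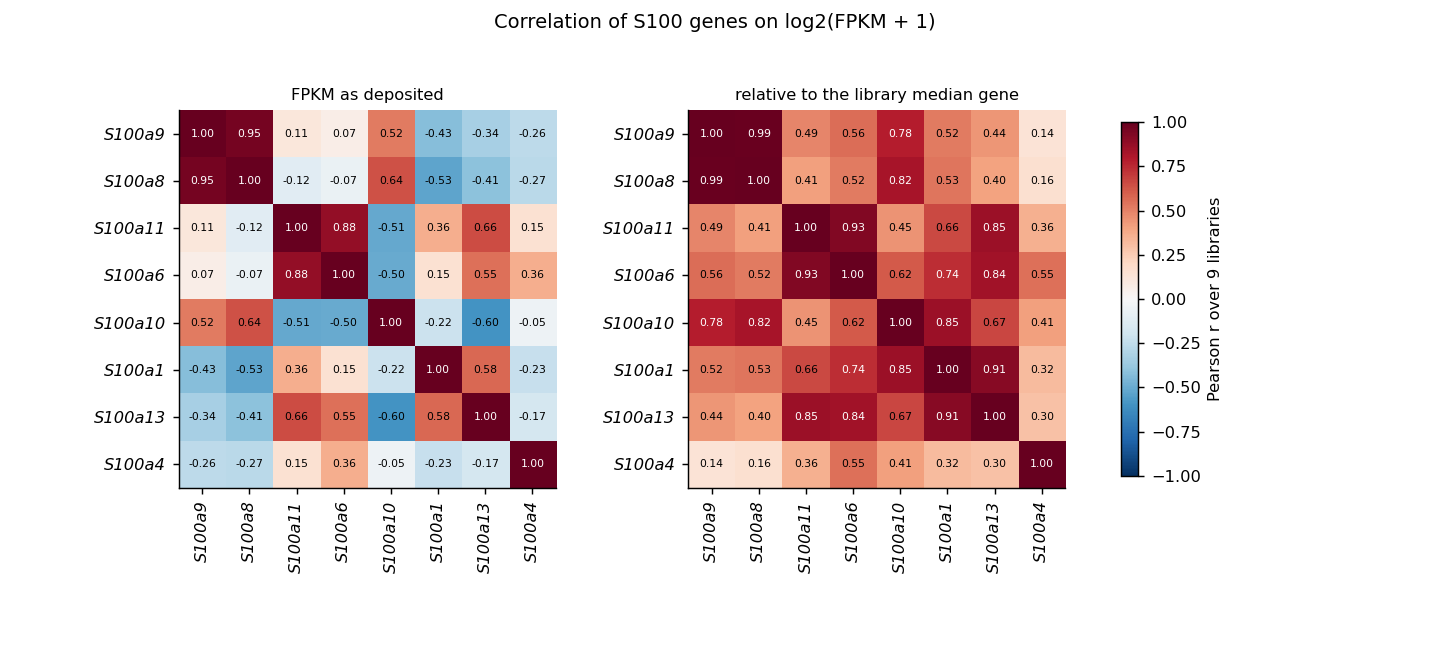
Pearson's r between members over the 9 libraries on log2(FPKM + 1), as deposited (left) and relative to the median gene of the library (right); red is positive and blue negative. S100a8 with S100a9 reads 0.95 and 0.99, and S100a6 with S100a11 reads 0.88 and 0.93.

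The genes whose levels ran most like each member were taken from all tested genes, by Pearson's r over the 9 libraries relative to the median gene, as a description. For S100a8 they were Lst1 (r = 0.996), a leukocyte-specific transcript, Spryd4 (0.981) and Fkbp2 (0.977). For S100a9 they were Lst1 (0.989), Wfdc21 (0.969) and Fkbp2 (0.965). Lst1 kept an r of 0.958 with S100a8 and 0.979 with S100a9 as deposited, while Spryd4 had 0.360 with S100a8. S100a11 ran closest to Ccl4 (0.976), a chemokine of activated leukocytes, Ndufb8 (0.974) and Wdr55 (0.968), and S100a6 to Zbtb8os (0.981) and Spata24 (0.972). S100a13 ran with the ribosomal genes Rpl6 (0.993) and Rps9 (0.991) and with Zfas1 (0.987), and S100a1 with Pfdn5 (0.992), Cops7b (0.975) and Rpl31 (0.974). S100a10 was nearest Sh3bgrl3 (0.984), Zfp317 (0.977) and Thnsl2 (0.976), and S100a4 nearest Cd59a (0.977), Cnot10 (0.968) and Stat4 (0.967). Zfp317, Thnsl2, Cd59a, Stat4 and Cops7b were low, with group means of 1.00 to 2.83 FPKM. Each r on the relative scale includes TMAO replicate 5, and several were much lower as deposited: 0.637 for Fkbp2 with S100a8, 0.232 for Zfp317 and 0.649 for Thnsl2 with S100a10, and 0.694 for Pfdn5, 0.702 for Cops7b and 0.534 for Rpl31 with S100a1. The other neighbours named here, Spryd4 aside, had 0.779 or more as deposited.

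Of the 10 other S100 genes listed, 3 were high enough to be tested. S100a16 had 214 ± 44.1 (SD, n = 4) FPKM with LPS alone and 236 ± 44.9 (SD, n = 5) with TMAO. S100g, the vitamin D-dependent calbindin, had 23.5 ± 9.91 and 26.3 ± 7.55 FPKM, and S100a14 had 9.99 ± 5.62 and 6.78 ± 2.04. None of these 3 was called, and their groups overlapped. S100a3, S100a7a, S100a2, S100b and S100z were at most 1.57 FPKM in any library, and S100a5 and S100a7l2 were listed at 0 in all 9.

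Receptors and signalling genes that respond to extracellular S100a8 and S100a9 were all high enough to be tested, and 0 of 10 were called. Of these 10, 0 had an unadjusted limma p under 0.05, where 2.93% of all tested genes were lower and 0.423% higher. Their median log2 difference was -0.31, beside -0.17 over all tested genes. Cd14, the LPS co-receptor, had 93.2 ± 39.7 (SD, n = 4) and 57.4 ± 17.3 (SD, n = 5) FPKM. Ager, abundant on alveolar type 1 cells, had 347 ± 99.8 and 244 ± 79.4 FPKM. Tlr4 was low in both groups, at 2.09 ± 0.60 and 1.99 ± 0.75 FPKM, and the adaptor Myd88 had 35.8 ± 7.91 and 27.8 ± 11.3. The scavenger receptor Cd36 had 152 ± 129 and 228 ± 131 FPKM.

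Among 8 transcription factors known to act on S100a8 and S100a9, 0 were called, 3 had an unadjusted limma p under 0.05 and lower levels (2.93% over all tested genes), and the median difference was -0.51 (-0.17 over all tested genes). Cebpd had 89.5 ± 12.5 (SD, n = 4) and 48.2 ± 24.4 (SD, n = 5) FPKM, and Cebpb had 176 ± 31.1 and 107 ± 39.5. Hif1a had 34.1 ± 16.9 and 14.7 ± 7.18 FPKM, and the myeloid factor Spi1, which encodes PU.1, had 82.8 ± 17.1 and 59.9 ± 13.6. S100a8 and S100a9 themselves had differences of -0.26 and -0.35. Cebpd (-1.01), Cebpb (-0.78) and Hif1a (-1.24) had larger ones, but these 3 had the smallest unadjusted limma p of the list. The rest of the list had -0.55 (Stat3), -0.47 (Spi1), -0.38 (Klf5), -0.33 (Cebpa) and 0.02 (Cebpe). The contrast with S100a8 and S100a9 was not tested.

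Alarmins outside the family also had 0 of 12 members called, with 4 lower at an unadjusted limma p under 0.05 and a median difference of -0.44. Over all tested genes 2.93% were lower at that p, 1.36% were lower without overlap, and the median difference was -0.17. Il1a, also in the list of partners because S100a13 helps to release it, had 1.74, 2.64, 1.94 and 4.80 FPKM with LPS alone and 1.15, 1.07, 1.56, 1.44 and 0.31 with TMAO, without overlap. Lgals3, a galectin of macrophages and epithelium, had 123 ± 52.7 (SD, n = 4) and 65.8 ± 13.5 (SD, n = 5) FPKM, again without overlap. Camp, an antimicrobial granule peptide, had 34.8 ± 19.96 and 9.29 ± 2.44 FPKM, and Lcn2 had 2716 ± 1575 and 1464 ± 517. Hmgb1, the nuclear alarmin, had a log2 difference of -0.11 and Il33, stored in epithelial nuclei, -0.59. Of 12 tested intracellular partners of S100 proteins 0 were called, 2 (Il1a and Anxa1) had an unadjusted limma p under 0.05, and the median difference was -0.28. Anxa2 and Sugt1 in that list differed by -0.28 and -0.30.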

How the data were processed

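Lung RNA was measured in 4 LPS-ALI and 5 TMAO libraries, grouped by the labels' titles, 1 mouse each. The authors used fastp, HISAT2, featureCounts and SAMtools, with mm10 as the build, per the submitters' processing notes, which give no versions. Annotation, strand setting and gene lengths are not stated in the sources used. The authors deposited FPKM rounded to 2 decimals, 1 column per library, and no column was left out. FPKM are not counts, so log2(FPKM + 1) was tested, a scale that understates changes at low levels, for the 11817 genes that reached 1 FPKM in 4 or more libraries. Limma 3.58.1 in R 4.3.3 was used with a mean-variance trend, two-sided, with Benjamini-Hochberg adjustment over all tested genes, and it was tested on simulated data. Exact permutation tests over samples were two-sided, and exact permutation of pairings was used for correlations. The smallest exact p for 4 against 5 is 0.00794. Relative depth came from the commonest ratio of low values, with 35 of 36 library pairs within 0.1 log2 units of the fit. Absolute depth, and so counting intervals, stay unknown.

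The members and gene lists were chosen with earlier results of these data known. The genes named are the members, all tested S100 genes, up to 4 genes of smallest unadjusted p in each list described, 3 genes of highest r for each member (1 of them is not reported here), and the partners Anxa1, Anxa2, Retnlg and Myh6. Hmgb1, Il33, Tlr4, Ccr2, Ryr2, Stat3, Klf5, Cebpa, Cebpe and S100 genes too low to be tested were added after their values were seen. Gene positions come from GENCODE M21, matched for 52125 of 52381 genes, and upstream sequences from RefSeq. Alternatives covered pseudocounts, filters, scaling, variance models, the mouse number as a block and leaving out libraries. Lists of other cell types that are not described had no called member. Python 3.11.15, pandas 2.3.3 and matplotlib 3.10.9 were used.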

Additional observations from a re-analysis of the deposited data

Results flagged for a closer look

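A library far from the rest of its group was found in 4 of 28 groups of values checked, where chance flags about 1 in 20. S100a1 had 139 FPKM in TMAO replicate 4, against 109 to 116 in the other TMAO lungs. S100a16 had 148 FPKM in LPS-ALI replicate 3, against 230.2 to 239.8 in the other LPS-ALI lungs. The log2 ratio of S100a8 to S100a9 was -0.14 in TMAO replicate 5, against -0.56 to -0.51 in the other TMAO lungs. The log2 ratio of S100a10 to Anxa2 was 0.37 in that library, against -1.14 to -0.74 in the others of its group.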

How the results depend on the processing

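Across 24 alternatives the group difference kept its sign for S100a11 (-0.74 to -0.41), S100a6 (-0.69 to -0.33), S100a9 (-0.74 to -0.12) and S100a1 (0.01 to 0.30), and no member passed an adjusted limma p of 0.05 under any. Some alternatives could not change a sign: other filters, no trend and robust moderation leave the difference as it is. For S100a11, whose groups do not overlap, leaving out libraries could not change it either. S100a8 turned to 0.32 under quantile normalization. S100a4 turned to 0.14 with library weights, 0.078 without LPS-ALI replicate 3 and 0.38 with the X-coded libraries left out. With library weights S100a10 was -0.0015. S100a13 turned to 0.089 under median-of-ratios scaling, 0.015 under quantile normalization, 0.036 with library medians subtracted, 0.12 without LPS-ALI replicate 4, 0.027 with the X-coded libraries left out and 0.028 without LPS-ALI replicate 4 and TMAO replicate 5 together. Without those 2 libraries the S100a8 to S100a9 ratio difference was -0.10 (exact permutation p = 0.0286, the smallest for 3 against 4), and it was -0.019 without LPS-ALI replicate 4. Those 2 libraries hold the lowest and the highest value of that ratio, so this p is no fair test of it. The distance of S100a9 from neutrophil markers turned to -0.13 when LPS-ALI replicate 4 was dropped, -0.16 for TMAO replicate 5, -0.21 for the X-coded libraries and -0.30 without LPS-ALI replicate 4 and TMAO replicate 5.

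Leaving out 1 library at a time gave -0.61 to -0.05 for S100a8, -0.59 to -0.16 for S100a9, -0.74 to 0.08 for S100a4, -0.69 to -0.44 for S100a6, 0.04 to 0.18 for S100a10, -0.74 to -0.45 for S100a11, -0.29 to 0.12 for S100a13 and 0.01 to 0.18 for S100a1. The ratio differences ranged from -0.02 to 0.14 for S100a8 to S100a9, -0.16 to 0.10 for S100a9 to neutrophil markers and 0.13 to 0.51 for S100a10 to Anxa2. Genes called over the whole table numbered 0 to 3, with 1 when LPS-ALI replicate 3 was dropped and 3 when TMAO replicate 4 was, and 51 with library weights, no member among them. The cause of these changes was not tested. With the mouse number as a replicate block, 0 genes were called (TMAO replicate 5 has no partner and adds nothing to that fit) and the differences were -0.64 for S100a11, -0.61 for S100a6, -0.42 for S100a9 and -0.40 for S100a8, and the numbers were not taken as pairs: same-numbered mice had r of -0.13 to 0.06 between their deviations, and no LPS-ALI library correlated best with the TMAO library of its number. Read totals are not given, so counting error could not be separated from spread between mice.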
